A study of Mus musculus with 8 samples.

Results

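The genes described here encode subunits of the Polycomb repressive complexes, and the question asked of them was where binding sites of ASH2L lay. The 10 genes were listed by name, 5 for Polycomb repressive complex 2 (PRC2; Ezh1, Ezh2, Eed, Suz12 and Jarid2) and 5 for Polycomb repressive complex 1 (PRC1; Ring1, Rnf2, Bmi1, Pcgf2 and Cbx2), out of 21938 protein-coding genes. All 10 were found by symbol in the annotation.

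The binding of ASH2L had been measured by ChIP-seq in immortalised mouse embryo fibroblasts (iMEF cells). In all groups the floxed endogenous Ash2l alleles had been deleted by Cre-ER after a lentiviral construct had been introduced, so that the cells depended on human ASH2L fused to an FKBP degradation tag and HA epitopes. The cells were derived from individual clones, and most of the study used a single clone, NG3. The 8 libraries formed 4 groups of 2 replicates, ASH2L precipitates and inputs of cells without dTAG and of cells exposed to dTAG, the degrader of the fusion protein, for 1 h. The data were 1 list of 6444 sites combined over all samples, of which 6428 lay on the 21 assembled nuclear chromosomes of mm10. The list gave the position of each site but no signal and no column per sample, so it does not show the depth of the libraries, no value has a replicate error, and a site cannot be assigned to cells with or without dTAG. Loss of ASH2L from these sites after dTAG was therefore not analysed here. The positions do not check the fibroblast label, since a site is not a measure of expression. Of 12 mesenchymal genes 6 had a site within 1 kb of a transcription start site (TSS), namely Col1a1, Col1a2, Vim, Twist1, Twist2 and Prrx1, and of 9 epithelial, endothelial, haematopoietic, pluripotency and neural crest genes none had. Col3a1, Thy1, Pdgfra, Fn1, Dcn and Lum had none. The widest islands of these lists had medians of 945 and 401 bp, and of all genes with an island under 500 bp wide 2.63% had a site.

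PRC2 places methyl groups on histone H3 (H3K27me3), a mark of repressed genes. PRC1 adds ubiquitin to histone H2A and compacts chromatin, and its canonical form is brought to H3K27me3 by CBX proteins. Trithorax proteins such as ASH2L act in the opposite direction, as part of the KMT2 complexes that methylate H3K4 at promoters. The comparison below asks which genes of the opposing Polycomb system carried ASH2L themselves.

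A site was found at 3 of the 10 genes. They were Suz12 of PRC2 and Rnf2 and Bmi1 of PRC1. Each had a site centred within 1 kb of a TSS, and the same 3 genes had a site within 3 kb and inside the gene body, the stretch between the outermost transcript ends. The other 7 genes, Ezh1, Ezh2, Eed, Jarid2, Ring1, Pcgf2 and Cbx2, had no site in any of these places. Across all protein-coding genes the shares were 14.0% within 1 kb (3078 of 21938), 15.4% within 3 kb and 15.8% in the gene body. All 10 genes had a CpG island, a stretch of DNA rich in CpG dinucleotides that was located here from the sequence alone, within 1 kb of a TSS, as did 73.4% of all protein-coding genes. Among the 16099 genes with an island the share with a site within 1 kb was 19.0%. The count of 3 in 10 rests on few genes and was not tested, because genes of a hand-made list are not replicates. The list of sites holds no values below its threshold, so a gene without a site is one where none was listed.

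**Figure D1:**
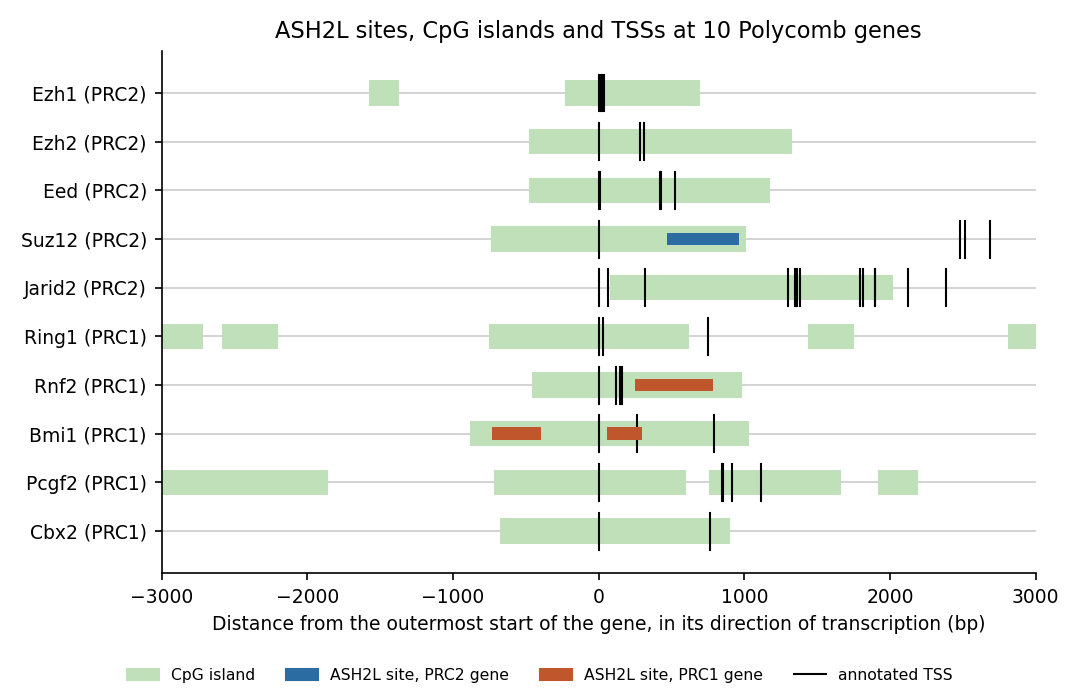
Positions of ASH2L sites (blue in PRC2 genes, orange in PRC1 genes), CpG islands (green) and annotated TSSs (black ticks) from 3000 bp upstream to 3000 bp downstream of the outermost start of each gene, in bp along its direction of transcription. All 4 sites, in Suz12, Rnf2 and Bmi1, lie entirely within an island, and the islands of the other 7 genes hold none.

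The sequences were read to compare the composition of the sites. The central 300 bp of the site in Suz12 (chr11:79993671-79993970, plus strand), of the site in Rnf2 (chr1:151500286-151500585, minus strand) and of the upstream site of Bmi1 (chr2:18676303-18676602, plus strand) are given in mm10, in the direction of each gene, with CpG dinucleotides in capitals. For the paralogues of Rnf2 and Bmi1, which had no site, the 250 bases before the RefSeq start are given for comparison (GRCm38.p6), for Ring1 at chr17:34024681-34024930 and for Pcgf2 at chr11:97699649-97699898, both on the minus strand.
Suz12 site: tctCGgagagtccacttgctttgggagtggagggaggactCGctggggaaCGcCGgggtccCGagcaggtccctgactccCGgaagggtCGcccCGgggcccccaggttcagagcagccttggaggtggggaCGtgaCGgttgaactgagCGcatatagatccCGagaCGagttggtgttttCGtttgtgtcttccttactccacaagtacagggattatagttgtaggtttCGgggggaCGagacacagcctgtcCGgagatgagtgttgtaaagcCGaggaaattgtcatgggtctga
Rnf2 site: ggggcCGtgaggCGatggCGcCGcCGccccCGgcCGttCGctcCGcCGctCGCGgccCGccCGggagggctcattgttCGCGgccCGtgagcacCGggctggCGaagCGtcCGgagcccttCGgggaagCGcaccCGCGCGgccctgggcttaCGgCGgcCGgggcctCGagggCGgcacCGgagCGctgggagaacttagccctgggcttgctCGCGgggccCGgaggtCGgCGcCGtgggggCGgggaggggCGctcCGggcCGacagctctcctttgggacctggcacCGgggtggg
Bmi1 upstream site: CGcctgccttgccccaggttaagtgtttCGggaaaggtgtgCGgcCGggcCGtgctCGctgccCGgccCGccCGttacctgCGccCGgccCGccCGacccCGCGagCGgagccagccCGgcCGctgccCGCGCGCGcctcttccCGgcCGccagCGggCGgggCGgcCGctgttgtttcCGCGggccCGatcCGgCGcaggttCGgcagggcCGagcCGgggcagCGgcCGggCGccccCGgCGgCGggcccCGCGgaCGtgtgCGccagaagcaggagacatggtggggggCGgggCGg
Ring1 promoter: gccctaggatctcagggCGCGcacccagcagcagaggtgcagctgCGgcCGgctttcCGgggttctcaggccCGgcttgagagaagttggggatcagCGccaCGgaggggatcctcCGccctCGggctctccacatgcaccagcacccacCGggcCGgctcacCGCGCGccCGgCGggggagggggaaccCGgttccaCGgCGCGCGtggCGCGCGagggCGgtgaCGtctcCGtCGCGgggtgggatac
Pcgf2 promoter: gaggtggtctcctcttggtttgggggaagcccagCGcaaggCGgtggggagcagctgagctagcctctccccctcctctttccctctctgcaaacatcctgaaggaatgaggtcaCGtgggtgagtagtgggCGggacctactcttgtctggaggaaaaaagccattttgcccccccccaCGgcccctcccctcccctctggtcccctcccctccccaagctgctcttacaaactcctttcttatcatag

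CpG dinucleotides were least frequent in the Suz12 stretch, with 18, against 44 in the Rnf2 stretch and 48 in the Bmi1 stretch. These stretches lie at other distances from the TSS than the 250 bases before the start, which held 30 at Ring1 and 5 at Pcgf2. The same 250 bases held 20 at Rnf2 and 21 at Bmi1. Ring1 without a site thus had more CpG dinucleotides before its start than Rnf2 with one. Pcgf2 had fewer than Bmi1, but not at a like position. Its RefSeq start lies 849 bp downstream of its outermost start and outside its widest island. That of Bmi1 is the outermost start.

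PRC2 is described first. Suz12 (ENSMUSG00000017548.15, chromosome 11, 79993106 to 80034123, plus strand) encodes the subunit that holds the complex together. Its site spanned 79993572 to 79994069, a width of 498 bp, and was wider than 82.8% of the 3168 sites within 1 kb of a coding TSS. The site was centred 714.5 bp downstream of the TSS, farther downstream than 94.7% of these sites. The centre was in the first intron, and the site began in the end of the first coding exon. It lay wholly within an island of 1755 bp and covered 28.4% of it. The GC content of the site was 58.0%, below the median of 66.5% over the 3168 sites, and its ratio of observed to expected CpG was 0.807, against a median of 0.878. Suz12 thus had a wide site on the downstream flank of its island rather than on the TSS.

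The other PRC2 genes had no site. Ezh2 (ENSMUSG00000029687.16, chromosome 6, 47530139 to 47595341) and Ezh1 (ENSMUSG00000006920.14, chromosome 11, 101191115 to 101226463) encode the alternative methyltransferases of the complex. Their widest islands were 1805 bp for Ezh2 and 925 bp for Ezh1. Among all genes with a widest island of 1500 bp or more, 30.4% had a site, and from 500 to under 1000 bp 16.6%. Neither catalytic paralogue had one, the more common state in both classes. Eed (ENSMUSG00000030619.9, chromosome 7, 89954654 to 89980983), whose product binds H3K27me3, had an island of 1654 bp. Jarid2 (ENSMUSG00000038518.15, chromosome 13, 44729474 to 44921643) encodes an accessory subunit that binds nucleosomes and stimulates the enzyme. Jarid2 was the longest of the 10 genes at 192 kb, had the most annotated TSSs with 16 and had the widest island with 1947 bp, yet no site lay anywhere in it.

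PRC1 had sites at 2 of its 5 genes. Rnf2 (ENSMUSG00000026484.13, chromosome 1, 151458004 to 151500955, minus strand) encodes RING1B, the E3 ligase that ubiquitinates H2A. Its site spanned 151500168 to 151500704 and was 537 bp wide, wider than 85.4% of the 3168 sites. It was centred in an intron, 358 bp downstream of the nearest TSS and 519 bp downstream of the outermost one. The site lay wholly within an island of 1444 bp and covered 37.2% of it. Its GC content of 77.7% was above that of 90.8% of the 3168 sites, and its CpG ratio was 0.909. A TSS of the gene model Gm36527 also lay within 1 kb of the site, so the site cannot be assigned to Rnf2 alone.

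Bmi1 (ENSMUSG00000026739.13, chromosome 2, 18677018 to 18686629, plus strand) encodes a PCGF protein that pairs with the RING ligase. It was the only one of the 10 genes with more than 1 site within 1 kb. Among all genes with a site, 455 of 3078 (14.8%) had at least 2. The upstream site spanned 18676286 to 18676619, was 334 bp wide and was centred at -565.5 bp from the TSS, where negative is upstream, and only 2.9% of the 3168 sites were centred farther upstream. The downstream site spanned 18677075 to 18677316 and was 242 bp wide. Its centre was in the UTR, 177.5 bp downstream of the outermost TSS and 84.5 bp upstream of a later TSS of the same gene. The sites were separated by 455 bp and shared an island of 1919 bp, of which they covered 17.4% and 12.6%. They were alike in composition, with GC contents of 80.5% and 80.2% and CpG ratios of 1.00 and 1.03, and their GC contents exceeded those of 96.6% and 96.1% of the 3168 sites. A further site at 18672460 to 18672671 (212 bp) was centred at -4452.5 bp from the nearest Bmi1 TSS and 42.5 bp downstream of a TSS of the neighbouring gene Commd3. Bmi1 therefore had sites on both sides of its outermost TSS, and its upstream neighbour had one as well.

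The remaining PRC1 genes had no site. Ring1 (ENSMUSG00000024325.8, chromosome 17, 34020792 to 34024680) encodes RING1A, the paralogue of RING1B. It had an island of 1376 bp, close to the 1444 bp of Rnf2. Pcgf2 (ENSMUSG00000018537.16, chromosome 11, 97688823 to 97700497) encodes MEL18, the paralogue of BMI1. It had an island of 1322 bp against 1919 bp in Bmi1. Cbx2 (ENSMUSG00000025577.7, chromosome 11, 119022962 to 119031270) encodes a chromodomain reader of H3K27me3, and its island was 1291 bp. In each of the paralogous pairs Rnf2 and Ring1 and Bmi1 and Pcgf2, 1 gene had a site and the other had none. Neither Ezh1 nor Ezh2 had one. How often paralogous pairs differ in this way was not counted over all genes.

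Side by side, 1 of 5 PRC2 genes (20.0%) and 2 of 5 PRC1 genes (40.0%) had a promoter site, with 1 and 3 sites in all. The counts differ by 1 gene, and this difference was not tested. Within 500 bp of a TSS, where 12.5% of all protein-coding genes had a site, the counts were 0 of 5 and 2 of 5, since the only Suz12 site was centred farther away. The upstream Bmi1 site was too, and Bmi1 was counted through its downstream site. The median of the widest islands was 1755 bp for PRC2 and 1376 bp for PRC1, so the complex with fewer sites had the wider islands. PRC2 genes were also longer, with a median of 41.0 kb against 9.61 kb, and had a median of 10 annotated TSSs against 7. The ranges of island width overlapped, at 925 to 1947 bp in PRC2 and 1291 to 1919 bp in PRC1.

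**Figure D2:**
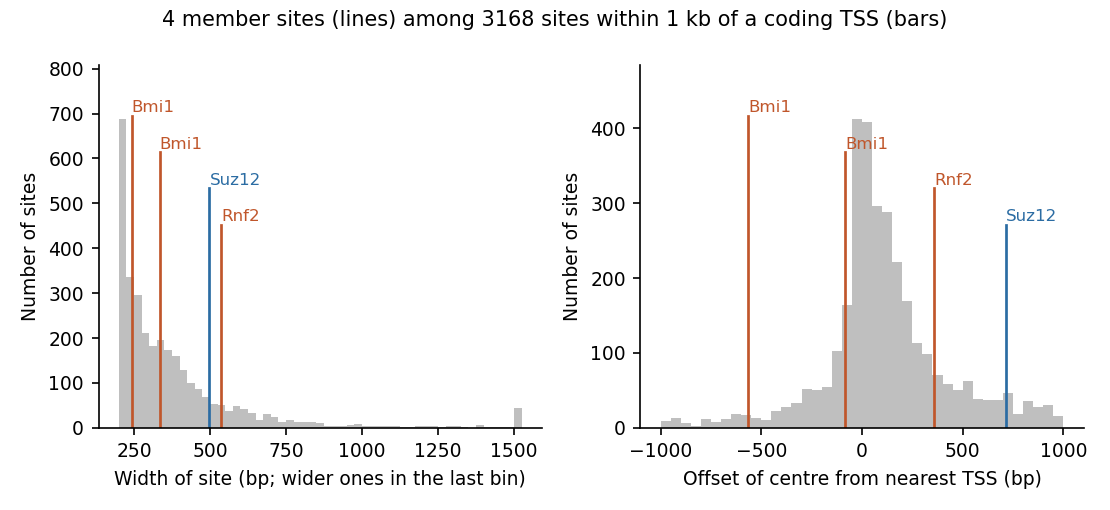
Numbers of sites (grey bars) by width in bp (left) and by offset of the centre from the nearest TSS in bp (right; negative is upstream) for the 3168 sites within 1 kb of a TSS of a protein-coding gene, with the 4 sites at Suz12, Rnf2 and Bmi1 as coloured lines (blue PRC2, orange PRC1). The Suz12 and Rnf2 sites are wider than most, and 3 of the 4 sites lie away from the peak of the offsets just downstream of the TSS.

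Width and position of the 4 sites were set against all sites near coding TSSs. The widths were 242, 334, 498 and 537 bp, with a median of 416 bp, while the 3168 sites had a median of 305 bp and quartiles of 232 and 425 bp. The offsets from the nearest TSS were -565.5, -84.5, 358 and 714.5 bp, and those of the 3168 sites had a median of 73.5 bp and quartiles of -22.5 and 232 bp. By the nearest annotated TSS, all 4 member sites fell outside these quartiles of offset, 2 on each side. The -84.5 bp is to a later Bmi1 TSS, and from the outermost start that site lay at 177.5 bp, between the quartiles. With TSSs of protein-coding transcripts only, the median offset of the 4 sites was 267.75 bp. All 4 were contained in an island. Of the 3168 sites 92% overlapped one by any length, and the share wholly contained is not given here.

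Island width went with the presence of a site across all genes. The share of genes with a site was 2.63% where the widest island was under 500 bp, 16.6% from 500 bp to under 1000 bp, 26.4% from 1000 bp to under 1500 bp and 30.4% at 1500 bp or more. Of the 10 Polycomb genes, 1 without a site (Ezh1) was in the second of these classes, 4 with 1 site-bearing gene (Rnf2) were in the third and 5 with 2 site-bearing genes (Suz12 and Bmi1) were in the last. The 3 genes with a site had widest islands of 1444, 1755 and 1919 bp, and the 7 without had 925 to 1947 bp, so island width did not separate them. The share also rose with the number of annotated TSSs, from 6.18% at 1 to 2 TSSs to 15.2% at 3 to 5 and 24.4% at 6 or more. Of the 10 genes 7 were in the last class, and 2 of these had a site. Beside the 26.4% and 30.4% of genes with islands of like width and the 24.4% with as many TSSs, 3 of 10 is near the background.

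**Figure D3:**
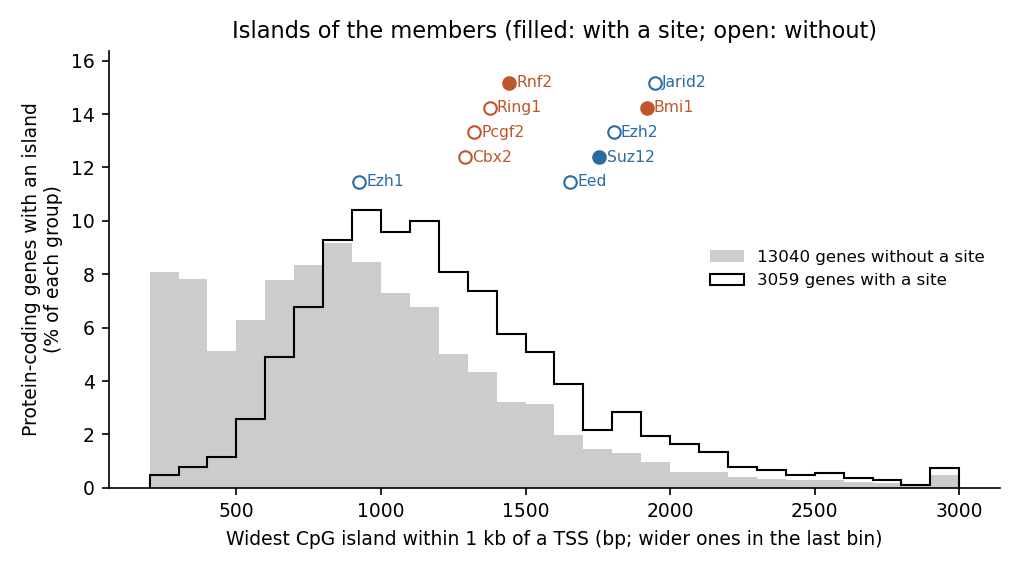
Width in bp of the widest CpG island within 1 kb of a TSS for protein-coding genes with an island, as a percentage of the 13040 genes without a site (grey) and of the 3059 genes with one (black line). The 10 Polycomb genes are marked above at their own width (filled with a site, open without; blue PRC2, orange PRC1; marker height has no meaning), and the filled markers of Rnf2, Suz12 and Bmi1 lie among the open ones.

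For the 7 genes without a site, the nearest one was 6.78 kb (Ring1) to 193 kb (Jarid2) from a TSS, with a median of 77.6 kb. The 13040 island genes without a site had a median of 96.3 kb and quartiles of 36.8 and 225 kb. At 5 of the 7 genes the nearest site was at the promoter of another protein-coding gene. Next to Ring1 it was a site of 222 bp at Slc39a7, centred 38.5 bp from the TSS. Eed, at 15.9 kb, neighboured a site of 225 bp at Hikeshi, and Ezh1, at 27.3 kb, a site of 305 bp at Vps25, centred 5 and 8 bp from the respective TSSs. Ezh2, at 77.6 kb, neighboured a site of 680 bp at Cul1, and Pcgf2, at 81.7 kb, one of 257 bp at the ribosomal protein gene Rpl23. The nearest sites to Cbx2 and Jarid2, at 141 and 193 kb, had the minimum width of 200 bp and were not within 1 kb of any TSS.

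**Figure D4:**
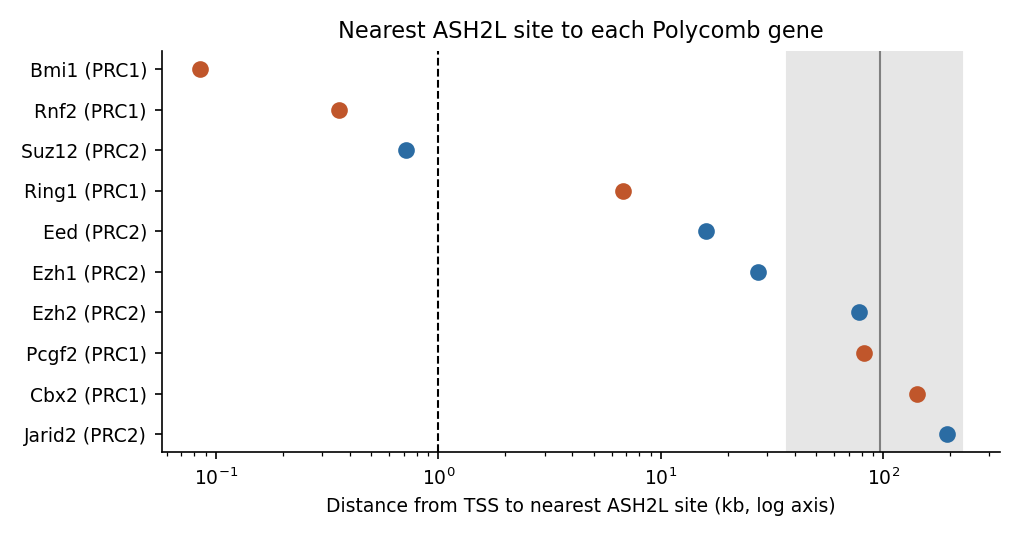
Distance in kb (log axis) from the nearest TSS of each Polycomb gene to the centre of the nearest ASH2L site (blue PRC2, orange PRC1). The dashed line marks 1 kb, and the grey band and line give the quartiles (36.8 and 225 kb) and median (96.3 kb) of the 13040 island genes without a site. Ring1, Eed and Ezh1 lie between the dashed line and the band.

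Of the 7 genes without a site, Jarid2 and Cbx2 lay in the longest stretches without one. Stretch lengths were not computed for all genes. The nearest-site distances of 193 kb (Jarid2) and 141 kb (Cbx2) lay within the quartiles of island genes without a site, 36.8 and 225 kb. The stretch around Jarid2, from the end of the preceding site to the start of the following one, was 1552 kb long, and that around Cbx2 was 1178 kb. The neighbours Cbx6 and Cbx7 on chromosome 15 lay in a stretch of 391 kb without one. Among the first 10 genes, the stretches around the others without a site ranged from 75.3 kb at Ring1 to 473 kb at Pcgf2.

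Motifs were searched as fixed letters on both strands in the RefSeq promoters (250 bases before to 50 after the start, GRCm38.p6), which held 10 promoters of 9 of the 10 genes, Cbx2 having no entry. No motif contained another. The SP/KLF letters CCCCGCCC occurred at Suz12, Rnf2, Bmi1 and Jarid2 and in 17.6% of all 32851 promoters. The 10 promoters held 10 to 41 CpG dinucleotides and all promoters a median of 7, so that GC-rich letters are not compared here at like composition. The E2F letters TTTNNCGC occurred at Suz12 and Ezh2 (5.17% of all promoters), the NFY letters CCAAT at Suz12, Ezh2, Eed and Jarid2 (37.4%) and the E-box CACGTG at Bmi1 and Pcgf2 (7.15%). The letters for ETS (CCGGAAGT, 3.89%), NRF1 (CGCATGCG, 1.87%), YY1 (AAGATGG, 6.34%), CRE (TGACGTCA, 1.79%) and AP-1 (TGANTCA, 7.81%) were in none of the 10 promoters. In the central 200 bp of the 4 sites, SP/KLF letters were found in the Rnf2 site and the upstream Bmi1 site, and in 11.1% of the 3168 sites. These 2 sites had GC contents of 77.7% and 80.5% against a median of 66.5%, so this too is not at like composition. None of the other 8 motifs was found in these 4 windows. Over the 3168 sites their shares ran from 0.663% (NRF1) to 10.6% (NFY). A match of letters is a description of the sequence and not evidence of a bound factor.

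The count was extended to 32 other Polycomb genes, all of which had an island. A site within 1 kb of a TSS was found at 9 of them (28.1%), close to the 3 of 10 in the first list. Of 8 accessory PRC2 genes, Rbbp4 and Mtf2 had a site. Rbbp4, which encodes a histone-binding protein shared with other chromatin complexes, had a site of 262 bp centred 116.5 bp downstream of the nearest TSS, within 1 kb of a TSS of Zbtb8os as well. Mtf2, a Polycomb-like subunit that binds CpG-rich DNA, had a site of 379 bp centred 27.0 bp upstream of its TSS. Neither Rbbp7, the paralogue of Rbbp4, nor Phf1 and Phf19, the paralogues of Mtf2, had one.

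Of 8 other genes of canonical PRC1 only the polyhomeotic gene Phc3 had a promoter site, of 485 bp at an offset of 511 bp. A further Phc3 site of 236 bp lay at 1061.5 bp, and a Phc2 site of 277 bp lay in an intron 1735 bp from the nearest TSS, outside any island. Cbx6 and Cbx7, which encode chromodomain readers like CBX2, had no site. Variant PRC1 complexes lack CBX proteins and contain RYBP or YAF2. Of 12 of their genes 4 had a site. Rybp had a site of 614 bp, the widest among the 42 genes, centred 218.5 bp upstream of its nearest TSS and 518.5 bp downstream of its outermost one. Its paralogue Yaf2 had a site of 493 bp at an offset of 446 bp. Kdm2b, whose product binds unmethylated CpG dinucleotides, had a site of 216 bp, which also lay within 1 kb of a TSS of A930024E05Rik. Pcgf5 had a site of 207 bp centred 167 bp downstream of an internal TSS but 61606 bp from its outermost start. Rybp and Yaf2 were thus a paralogous pair in which both genes had a site.

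Of 4 genes of the deubiquitinase that reverses H2A ubiquitination (PR-DUB), Bap1, the enzyme, and Asxl1, its cofactor, had a site. The Bap1 site had the minimum width of 200 bp and lay 254.5 bp upstream, nearer to a TSS of Phf7, at 103.5 bp. The Asxl1 site of 248 bp was centred 995.5 bp downstream of the outermost TSS and 850.5 bp upstream of another, and a TSS of 2500004C02Rik was nearer, at 751.5 bp. Over all 42 genes, 12 (28.6%) had a promoter site, against the 19.0% of genes with an island. Their widest islands had a median of 1445 bp and they had a median of 7 TSSs. The 28.6% is near the 26.4%, 30.4% and 24.4% of all genes with islands from 1000 bp to under 1500 bp, with islands of 1500 bp or more and with 6 or more TSSs. The 13 sites in these promoters all lay wholly within an island.

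**Figure D5:**
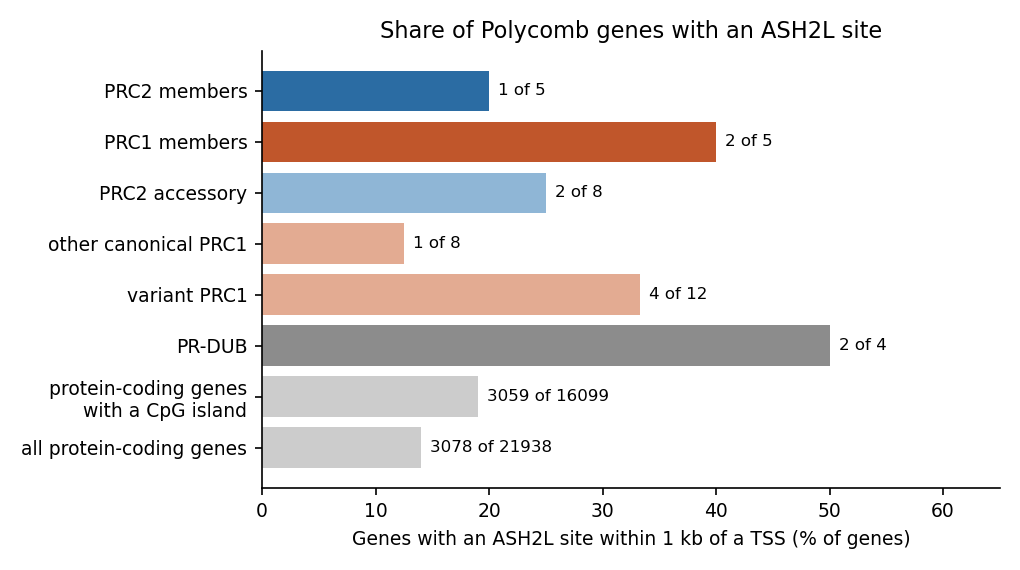
Percentage of genes with an ASH2L site within 1 kb of a TSS in the PRC2 and PRC1 members, in further Polycomb groups, among protein-coding genes with a CpG island and among all protein-coding genes, with the numbers beside the bars. The Polycomb groups hold 4 to 12 genes each, and their shares run from 12.5% for the other canonical PRC1 genes to 50.0% for PR-DUB.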

How the data were processed

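ASH2L ChIP-seq and input libraries were made by the authors from iMEF cells with and without dTAG. Trim Galore served for trimming, BWA for alignment to mm10, Picard for merging replicates and MACS2 for calling narrow peaks. Whether peaks were called per library or on merged replicates is not given in the sources used here. The deposited list holds genomic positions only. Signals per sample were not analysed here, so the planned test of the change after dTAG was not run. The 16 sites outside the assembled chromosomes were left out.

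Starts were read as counted from 0 and are printed from 1. A site was placed by its centre. TSSs were those of all transcripts of a gene in GENCODE mouse release 21, and sequence came from GRCm38.p6, the same build as mm10. CpG islands were unions of 200-bp windows with GC over 50% and a CpG ratio over 0.6, computed here. Genes named in the text were the 10 members, genes of the wider list with a site within 1 kb, the marker genes, and genes sharing a named site or nearest to one. Phc2, paralogues of named genes and sites beyond 1 kb are named in addition, chosen after their values were seen. One gene of the wider list is counted but not reported here by name. The members, marker genes and lists were chosen with earlier results of these data known. Assignment was tested on simulated data, where 200 of 200 planted sites were recovered among 21938 genes. Python 3.11.15, NumPy 2.4.6, pandas 2.3.3 and matplotlib 3.10.9 were used.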

Additional observations from a re-analysis of the deposited data

How the results depend on the processing

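The 3 genes with a site, Suz12, Rnf2 and Bmi1, kept it with any base of the site counted, with TSSs of protein-coding or basic transcripts only, with the outermost start only, without sites of the minimum width and within 2 kb. They also kept it with RefSeq starts, an alternative chosen after seeing the data, in which Cbx2 has no entry. Within 500 bp the Suz12 site dropped out, leaving 2 of the 10 genes and 0 of the 5 PRC2 genes, because it is centred 714.5 bp from the TSS. Of 48 alternatives to 11 results, 47 kept a count within 1.5 times, or a median within 1 SD of the 4 sites (139 bp for width, 554 bp for offset). Some could not lower a count, since no site at the 10 genes had the minimum width and wider windows can only add genes. The fall from 3 to 2 genes within 500 bp was counted among those kept. The median offset was 136.75 bp from the nearest TSS and 348.25 bp from the outermost start. With sites less than 1 kb apart merged, the 4 sites became 3. The wider list had 7 genes with a site by RefSeq starts, where Rybp and Yaf2 have no entry, and up to 10 within 3 kb. No paired analysis was possible because the list has no column per sample, and leaving out a replicate or applying a stricter peak threshold could not be done for the same reason. The list shows no depth (the methods state a planned minimum of reads, not the number reached), so a gene without a site may carry ASH2L below the authors' threshold.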
